A study of Homo sapiens with 6 samples.

Results

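The transcripts described here are those of 28 genes that encode proteins of the small (40S) subunit of the cytosolic ribosome. They were chosen by gene name, from RPSA and RPS2 to RPS29 and FAU, without their pseudogenes, and make up 28 of the 62703 genes in the deposited table. All 28 were listed above 0 in each library and all were tested. RNA sequencing of total RNA had been done on H9 cells, an established line of human embryonic stem cells. Cells labelled siNPM1, whose treatment label reads siB23 after the older name of the NPM1 protein, gave 3 libraries, and cells labelled siControl gave the other 3. The series' design text calls the 3 libraries of a group biological replicates, and the labels give neither the siRNA sequences nor the time after treatment.

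The 40S subunit binds messenger RNA and reads its codons. Its proteins fold onto 18S ribosomal RNA in the nucleolus, the compartment in which nucleophosmin, the product of NPM1, is most abundant. Transcripts of ribosomal proteins are among the most abundant of growing cells, and most begin with a terminal oligopyrimidine (TOP) motif, an uninterrupted run of C and T bases at the start of the messenger RNA, through which their translation is controlled together. Loss of 1 copy of any of several of these genes causes Diamond-Blackfan anaemia, a failure of red cell production.

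The starts of the genes on which the results turn are shown because the oligopyrimidine run is the feature these genes are best known to share. Each line gives 30 bases of RefSeq promoter sequence (GRCh38.p14), 14 before and 16 from the annotated start, on the gene's own strand from 5′ to 3′. Capitals mark the longest run of C and T that overlaps the 10 bases on either side of that start. Where a gene has several entries, the one with the longest run was taken.
RPS3 (chr11:75399504-75399533, plus strand): cccgcgagccaCTTCCTTTCCTTTCagcgg
RPS12 (chr6:132814555-132814584, plus strand): cgtgcggatgaggCCTCTTTCCCTgccgcc
RPS14 (chr5:150449724-150449753, minus strand): cgccccctcccaCTCTCTCTTTCCggtgtg
RPS27A (chr2:55232664-55232693, plus strand): ccgtgggcctgcgcggcgTTCTTCCTTTTC
RPS25 (chr11:119018328-119018357, minus strand): ctgagcagcgCTTCCTTTTTgtccgacatc
RPS10 (chr6:34426054-34426083, minus strand): cgcgcatgCTCCTTCCTTTCCagccccggt
RPS19 (chr19:41860241-41860270, plus strand): gaaaccccgtcgTTCCCTTTCCCCTggctg
RPS27 (chr1:153990748-153990777, plus strand): tttccgctttcgCTCCTTTCCggcggtgac
RPS26 (chr12:56041904-56041933, plus strand): agacacataacctcgaTTTTCTTCCgccat
FAU (chr11:65122119-65122148, minus strand): gccctcgCTTCTTCCTCTTTCTCgactcca
RPS29 (chr14:49598695-49598724, minus strand): cccgagcgcgcagCTggcagcggtggttgt

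RefSeq entries were used for 25 of the 28 genes, and 22 of these 25 (88.0%) had a run of at least 8 bases. RPS2, RPS15A and RPS20 had no entry in use. Member entries on chromosome 8, where RPS20 lies, were left out, which was not done for all genes. The share among 27305 genes with an entry was 18.3%. The median run was 11 bases against 5 over all genes, with the longest, 16 bases, at FAU and RPS24. RPS29, RPS3A and RPS4X had runs of 2, 7 and 5 bases. The letters CCGGAA, searched on both strands of the 300 bases of each entry, occurred in 15 of the 25 genes (60.0%) and in 20.1% of all genes. A match is a description of the letters, and these windows hold an annotated start that may differ from the one used in H9 cells.

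NPM1 was lowered in each siNPM1 library, at 173, 165 and 238 TPM (each gene's length-scaled share of the transcripts of a library) against 3109, 2969 and 3132 TPM in siControl replicates 1, 2 and 3. siControl replicate 2 therefore carried NPM1 at the control level, but it stood apart from its group in other transcripts. Mitochondrially encoded protein transcripts made up 22.3% of its TPM, against 8.86% and 8.82% in siControl replicates 1 and 3, and 17.0 to 19.8% in siNPM1. The comparisons of levels below are therefore given with and without that library. All 6 pluripotency markers examined were present (summed level 3687 to 4115 TPM in siControl and 3024 to 3603 TPM in siNPM1). Of the lineage markers, 0 of 5 for endoderm and 1 of 5 for mesoderm reached a mean of 1 TPM. For neuroectoderm 3 of 5 did (summed level 82.8 to 102 TPM in siControl and 140 to 169 TPM in siNPM1), and for fibroblasts 2 of 5, with another 2 at 0 throughout. The part of these markers in the values below was not tested.

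Together the 28 transcripts made up 9.71%, 6.70% and 9.95% of the library TPM in siControl replicates 1, 2 and 3, and 8.71%, 7.95% and 7.96% in siNPM1 replicates 1, 2 and 3. All 3 siNPM1 libraries thus lay below siControl replicates 1 and 3 and above replicate 2, and the groups overlapped. The means were 8.79% ± 1.81 in siControl and 8.21% ± 0.438 in siNPM1 (SD, n = 3 each). The difference was smaller than the spread within siControl. As a share of the TPM left after taking out the mitochondrially encoded genes, the values were 10.7%, 8.62% and 10.9% in siControl and 10.5%, 9.91% and 9.86% in siNPM1. On that scale, too, the siNPM1 libraries lay between siControl replicate 2 and the other two controls. TPM is a share of the library, so a change in these transcripts and an opposite change in all others cannot be told apart, nor can fewer cells and less RNA per cell.

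**Figure D1:**
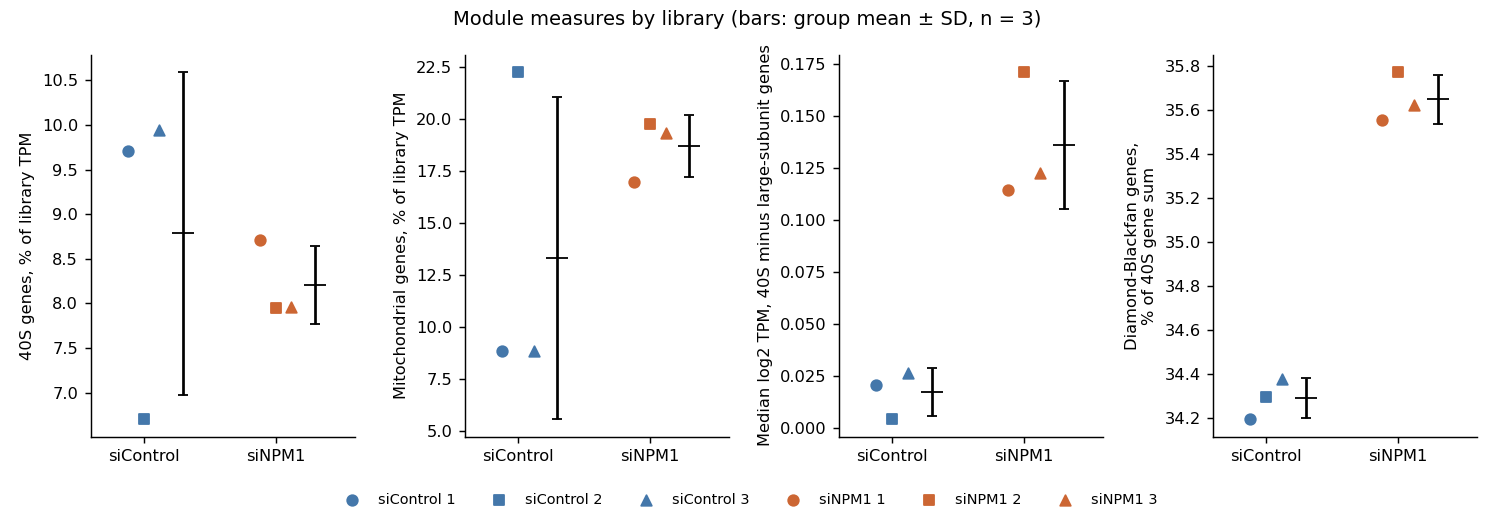
Each point is 1 library. From left to right, the panels give the summed TPM of the 28 small-subunit (40S) genes as percent of the library, that of mitochondrially encoded protein transcripts, the median log2 TPM of the 40S genes minus that of 47 large-subunit (60S) genes, and the share of 9 Diamond-Blackfan anaemia genes in the 40S sum; bars are the group mean ± SD of 3 libraries. siControl replicate 2 lies apart from the other controls in the left 2 panels and beside them in the right 2. In the last panel the separation of the groups rests on RPS27.

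Levels differed widely between the 28 genes. The mean over the 6 libraries ran from 549 TPM to 8099.5 TPM, a ratio of 14.7, with a median of 2420.2 TPM. RPS27, a zinc-finger protein of the 40S subunit, was the highest. It stood at 9176, 5745 and 9202 TPM under siControl and 9164, 7584 and 7726 TPM under siNPM1. RPS18, a protein of the 40S head at the interface with the large subunit, came next, at 7063, 4557 and 7240.4 TPM in the control libraries and 5879, 5268 and 5423 TPM in the siNPM1 libraries. In both genes siControl replicate 2 was the lowest library, and the groups overlapped.

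The lowest levels were those of RPS28 and RPS26. RPS28, which lies near the mRNA exit channel, stood at 589.9, 389.7 and 745 TPM under siControl and 541, 496 and 536 TPM under siNPM1. RPS26, which contacts the messenger RNA upstream of the start codon, stood at 504, 678 and 466 TPM in the control libraries and 482, 685 and 662 TPM in the siNPM1 libraries. RPS28 repeated the order seen in most other genes, whereas the libraries of RPS26 fell into a high and a low set that cut across the groups. The means of the 2 genes differed by less than the spread within either, so their order is not resolved.

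**Figure D2:**
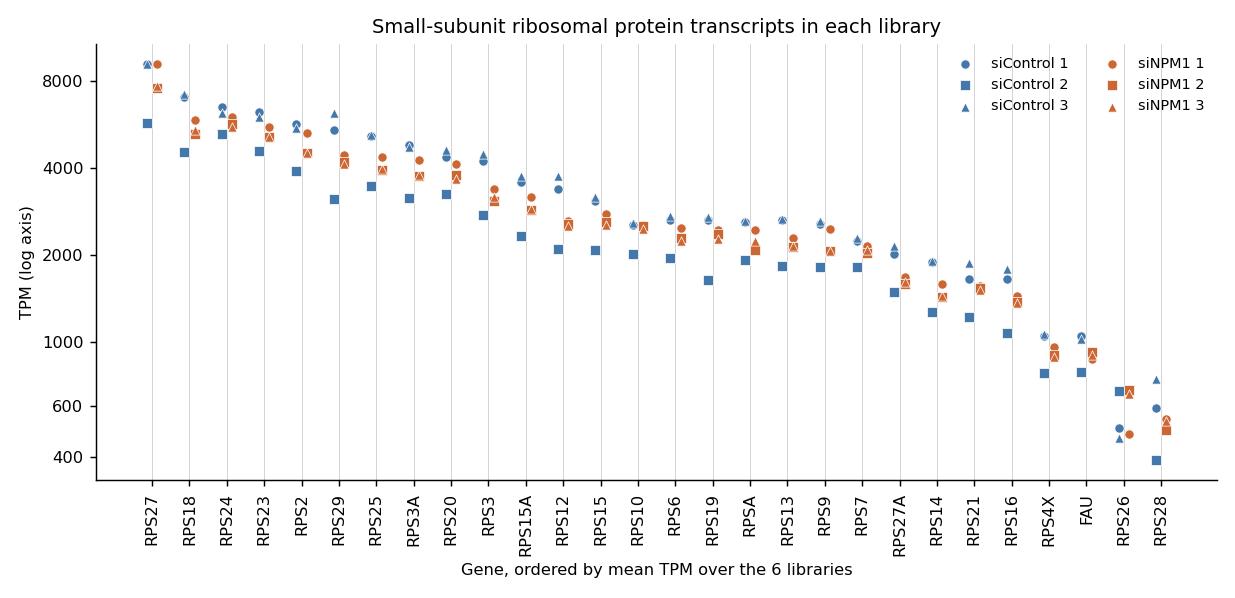
TPM (log axis) of each of the 28 genes in each library, with genes ordered by their mean and siControl drawn to the left of siNPM1. siControl replicate 2 (blue square) is the lowest point in 27 genes, and RPS26 is the exception, with siControl replicate 2 and siNPM1 replicates 2 and 3 at 662 to 685 TPM and the others at 466 to 504 TPM.

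The comparison of siNPM1 with siControl over all 6 libraries placed 0 of the 28 genes past the threshold (limma on log2(TPM + 1), Benjamini-Hochberg adjusted p under 0.05 over 15768 genes). In the same fit 0.0% of all tested genes passed as higher and 0.0254% as lower, and 0 of the 28 had an unadjusted p under 0.05, against 19.7% of all tested genes. The 28 genes had adjusted p from 0.477 to 0.970. Of them, 24 had a negative and 4 a positive log2 fold change, with a median of -0.07 against 0.10 over all tested genes. Centring each library on its median lowered the median of all tested genes from 0.10 to -0.02 and that of the 28 genes to -0.20. Rescaling without the mitochondrially encoded genes turned the median of the 28 genes to 0.02, with 20 positive and 8 negative.

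The 4 genes with the most negative fold change were RPS3, RPS12, RPS27A and RPS14. RPS3, a protein of the 40S head at the mRNA entry site, stood at 4252, 2752 and 4480.05 TPM under siControl and 3385, 3072 and 3174 TPM under siNPM1. Its log2 fold change was -0.22 (standard error 0.203, limma adjusted p = 0.527). Each siNPM1 value lay between siControl replicate 2 and the other two controls.

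RPS12, a head protein of the projection called the beak, stood at 3399.6, 2105 and 3770.0 TPM in the control libraries and 2637, 2564 and 2527 TPM in the siNPM1 libraries (log2 fold change -0.22, standard error 0.224, limma adjusted p = 0.574). RPS27A is made as a fusion of ubiquitin with the ribosomal protein and is one of the genes that supply ubiquitin. It stood at 2016, 1491 and 2156 TPM under siControl and 1679.6, 1589 and 1612 TPM under siNPM1 (log2 fold change -0.20, limma adjusted p = 0.477). RPS14, a platform protein whose loss of 1 copy is tied to the anaemia of the 5q- syndrome, stood at 1899, 1273 and 1906 TPM in the control libraries and 1594, 1434 and 1441 TPM in the siNPM1 libraries (log2 fold change -0.16, limma adjusted p = 0.610). In all 4 genes siNPM1 lay below siControl replicates 1 and 3 and above replicate 2.

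The 4 genes with a positive fold change were RPS26, RPS10, RPS19 and RPS27, at 0.15, 0.08, 0.05 and 0.05 on the log2 scale. RPS10, a head protein that is marked with ubiquitin on stalled ribosomes, stood at 2538, 2020.0 and 2589 TPM under siControl and 2544, 2527 and 2458 TPM under siNPM1 (limma adjusted p = 0.728). The siNPM1 values lay close to siControl replicates 1 and 3, and only siControl replicate 2 was low. RPS19, the gene first linked to Diamond-Blackfan anaemia, stood at 2655, 1637 and 2719 TPM in the control libraries and 2450.3, 2372 and 2273 TPM in the siNPM1 libraries (limma adjusted p = 0.893). FAU, a fusion of a ubiquitin-like protein with the ribosomal protein eS30, stood at 1049, 788 and 1023 TPM under siControl and 876, 923 and 903 TPM under siNPM1 (log2 fold change -0.07, limma adjusted p = 0.777).

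One order of the libraries recurred across the genes. In 26 of the 28, the exceptions being RPS10 and RPS26, the 3 siNPM1 values lay above siControl replicate 2 and below siControl replicates 1 and 3. Among all tested genes 7.61% showed that order. siControl replicate 2 was the lowest library in 27 of the 28 genes, against 18.2% of all tested genes. Its level was between 53.8% (RPS29) and 82.5% (RPS24) of the mean of the other two controls in those 27 genes, with a median of 69.2%, and 140% for RPS26. The siNPM1 mean was between 71.9% and 97.9% of the same reference in those 27 genes, with a median of 84.7%. None of the 28 separated siNPM1 from all 3 controls, where 16.2% of tested genes did so as higher and 8.55% as lower. Set against siControl replicates 1 and 3 only, siNPM1 lay below both in 26 genes (24.1% of tested genes) and above both in 0 (40.6% of tested genes). The reverse order, with siNPM1 below replicate 2 and above replicates 1 and 3, was found in 0 of the 28 and in 9.4% of tested genes.

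Which controls were used set the direction of the comparison. Without siControl replicate 2, 27 of the 28 genes had a negative log2 fold change, with a median of -0.24 against 0.14 over all genes, and 13 passed as lower (limma, Benjamini-Hochberg adjusted p under 0.05). The background in that fit was 12.9% of tested genes lower and 24.1% higher, so calls in general were frequent. An unadjusted p under 0.05 was found for 22 of the 28, against 48.5% of all tested genes. The largest falls were those of RPS12 (-0.47, adjusted p = 0.00692), RPS29 (-0.45, adjusted p = 0.0130), a zinc-binding head protein, and RPS3 (-0.44, adjusted p = 0.00834). Among those that passed, RPS18, RPS27A, RPS14 and RPS25 followed at -0.37 to -0.34. RPS26 had 0.31 (adjusted p = 0.194) and RPS10 -0.03 (adjusted p = 0.688), and neither passed. By position on the subunit, 8 of 12 head genes and 5 of 16 genes of the body and platform passed as lower, and the difference between these counts was not tested.

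Against siControl replicate 2 alone, 27 of the 28 genes had a positive log2 fold change, with a median of 0.26 against 0.04 over all genes. None passed (limma, adjusted p from 0.411 to 0.812), and 10 had an unadjusted p under 0.05, against 10.6% of all tested genes; 0.0% of tested genes passed as higher and 0.171% as lower. RPS19 had the largest value, 0.53, and RPS26 the single negative one, -0.17. The lone control was assumed to vary like the other libraries in this fit.

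**Figure D3:**
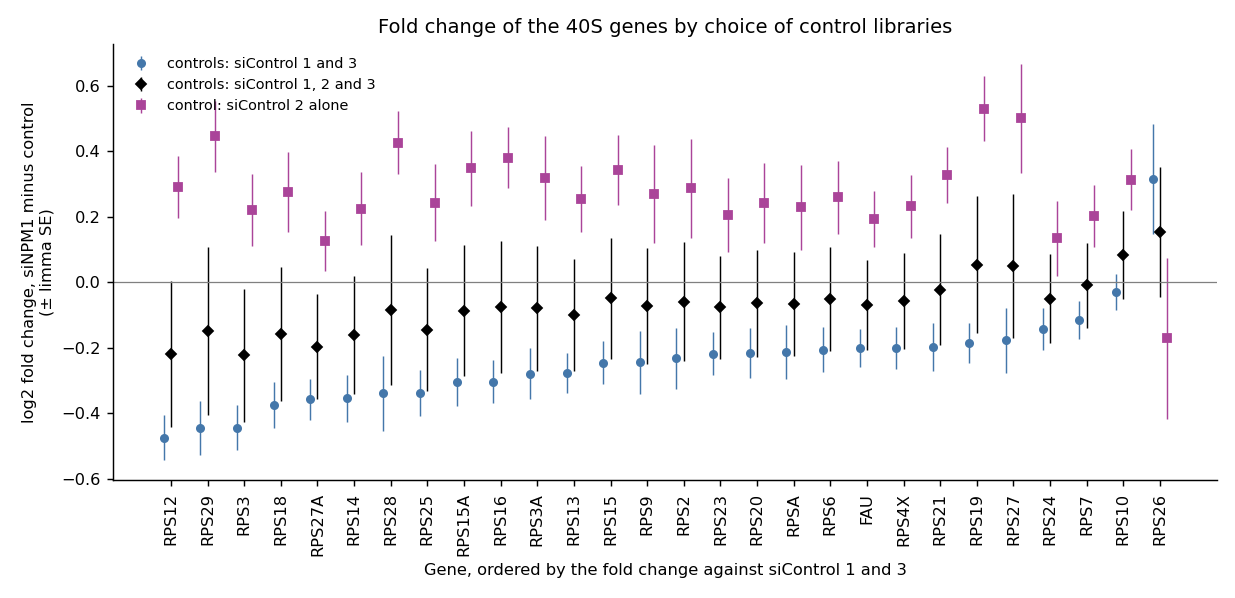
Log2 fold change (siNPM1 minus control, log2(TPM + 1) scale) of each of the 28 genes with 3 choices of control libraries; bars are limma's standard error. The values against siControl replicates 1 and 3 are negative for 27 genes, those against siControl replicate 2 alone are positive for 27, and RPS26 goes the other way in each.

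The large-subunit genes followed the same order of libraries. Their 47 transcripts made up 13.8%, 9.87% and 14.2% of the library in siControl and 12.4%, 11.1% and 11.3% in siNPM1. Of the 47, 40 had a negative log2 fold change with a median of -0.12, and 0 passed (limma). Without siControl replicate 2, 28 of 47 passed as lower with a median of -0.28. Against siControl replicate 2 alone, 46 of 47 were positive with a median of 0.24 and 0 passed. The ratio of the summed small-subunit to the summed large-subunit TPM was 0.701, 0.679 and 0.702 in siControl and 0.703, 0.714 and 0.706 in siNPM1. The siNPM1 ratios lay above all 3 controls, with 0.702 and 0.703 as the closest values, but overlapped them once the pseudogene row RPS28P7, described below, was counted with the small subunit (0.720, 0.693 and 0.7203 against 0.7201, 0.733 and 0.725).

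The median log2 TPM of the 28 small-subunit genes, minus that of the 47 large-subunit genes, was 0.02, 0.0043 and 0.03 in siControl and 0.11, 0.17 and 0.12 in siNPM1. Here siControl replicate 2 lay with the other controls, and siNPM1 lay above all 3. The difference of the means was 0.12 on the log2 scale, with SDs of 0.0115 in siControl and 0.0306 in siNPM1. A median of 28 genes depends on the few genes in the middle of the order, and the ratio of sums on the few highest ones. Counting RPS28P7 with RPS28 would move RPS28 above the middle of the order in every library but siControl replicate 2. That would raise the difference in those libraries, siControl replicates 1 and 3 among them, and not in siControl replicate 2. The median was not recalculated in that way, so the separation of the groups was not tested against it.

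Other lists of the same machinery gave the following counts in the fit over 6 libraries, with 0 genes past the threshold in each (limma). Of 18 other transcripts with a TOP motif, such as translation elongation factors, 13 had a negative log2 fold change with a median of -0.08. With siControl replicate 2 left out, 16 of these 18 were negative with a median of -0.19 and 2 passed as lower. Against that replicate alone, 16 were positive with a median of 0.20 and 0 passed.

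Of 31 factors that assemble the 40S subunit, 29 had a positive one with a median of 0.42, and 10 had an unadjusted p under 0.05 (19.7% of all tested genes did). Without siControl replicate 2, 20 of these 31 passed as higher and 0 as lower, where 24.1% of all tested genes passed as higher, and the median was 0.61. Against that replicate alone, 21 were positive and 10 negative, with a median of 0.08, and 0 passed. Relative to the summed TPM of the 28 small-subunit genes, 25 of the 31 were negative against it, with a median of -0.20, whereas with all 6 libraries 29 were positive, with a median of 0.49. The assembly factors with the smallest p were EMG1, an rRNA methyltransferase, at 9.67, 12.4 and 9.71 TPM in the control libraries and 18.1, 14.9 and 18.6 TPM in the siNPM1 libraries, and TSR1, at 32.4, 43.2 and 30.4 TPM under siControl and 48.2, 51.0 and 57.6 TPM under siNPM1. Their log2 fold changes were 0.65 and 0.56 (limma adjusted p = 0.212 and 0.216). Both passed without siControl replicate 2, at 0.76 and 0.71 (limma adjusted p = 0.0101 and 0.00690), and against it alone neither did, at 0.43 and 0.26 (limma adjusted p = 0.498 and 0.553).

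Of 29 genes for proteins of the mitochondrial small subunit, 20 had a positive log2 fold change with a median of 0.12, and 14 had one after centring each library on its median. The median was 0.24 once siControl replicate 2 was left out, with 12 past the threshold as higher and 3 as lower. Against that replicate alone 11 were positive and 18 negative, with a median of -0.02, and 0 passed. TSR2, the dedicated chaperone of RPS26, stood at 20.5, 13.95 and 22.3 TPM in the control libraries and 15.6, 13.5 and 13.4 TPM in the siNPM1 libraries (log2 fold change -0.37, limma adjusted p = 0.319). It passed as lower without siControl replicate 2, at -0.57 (limma adjusted p = 0.0158), and against that replicate alone it had 0.015. TSR2 was 1 of 3 dedicated chaperones examined. With all 6 libraries 2 of the 3 had a negative log2 fold change. Without siControl replicate 2 TSR2 was the only negative gene of the 3, and their median was 0.017.

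The composition of the 40S sum was then examined, each gene being given as its share of the summed TPM of the 28 genes in the same library. This removes the differences in the sum between libraries. The shares varied little between libraries. The spread between the highest and the lowest library was 0.06 to 0.42 on the log2 scale in 27 genes, and 1.11 in RPS26. siControl replicate 2 held the lowest share in 8 genes and the highest in 11, against 5.4% and 50.3% of tested genes relative to the same sum. That sum was lowest in siControl replicate 2, which raises genes outside the 28 there. In TPM, 18.6% of tested genes were highest in that library. The percentages of tested genes on this scale, here and below, are therefore not a like measure for the shares. The groups did not overlap in 6 genes. In siNPM1, 4 of the 28 had a lower share in every library than in any control (8.26% of tested genes, expressed relative to the same sum, did so) and 2 a higher share (8.4% did so).

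The 4 with lower shares were RPS3, RPS27A, RPS14 and RPS25. The share of RPS3 was 4.38%, 4.10% and 4.50% in siControl and 3.89%, 3.86% and 3.99% in siNPM1, with means of 4.33% ± 0.205 and 3.91% ± 0.0665 (SD, n = 3 each). That of RPS27A was 2.08%, 2.22% and 2.17% in siControl and 1.93%, 2.00% and 2.03% in siNPM1. For RPS14 it was 1.96%, 1.90% and 1.92% against 1.83%, 1.80% and 1.81%. For RPS25, a head protein needed by some viral internal ribosome entry sites, the share was 5.31%, 5.17% and 5.23% against 5.01%, 4.97% and 5.01%. In each of these genes the exact two-sided permutation test gave p = 0.1, the smallest that 3 against 3 libraries can give. Groups that do not overlap always give that p and keep siControl replicate 2 on the side of the controls, so neither adds support. For RPS3 the closest values were 4.10% in siControl replicate 2 and 3.99% in siNPM1 replicate 3.

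The 2 with higher shares were RPS27 and RPS19. RPS27 made up 9.45%, 8.57% and 9.25% of the sum in siControl and 10.5%, 9.54% and 9.71% in siNPM1 (means 9.09% ± 0.463 and 9.92% ± 0.523, SD, n = 3 each; exact permutation p = 0.1). RPS19 made up 2.73%, 2.44% and 2.73% in siControl and 2.81%, 2.98% and 2.86% in siNPM1 (exact permutation p = 0.1). In both, siControl replicate 2 had the lowest share, so the gap to siNPM1 was narrower without it: the closest values were 9.45% and 9.54% for RPS27 and 2.73% and 2.81% for RPS19.

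RPS10 and RPS12 overlapped only through siControl replicate 2. The share of RPS10 was 2.61%, 3.01% and 2.60% in siControl and 2.92%, 3.18% and 3.09% in siNPM1. The share of RPS12 was 3.50%, 3.14% and 3.79% in siControl and 3.03%, 3.23% and 3.18% in siNPM1. In both, siControl replicate 2 lay among the siNPM1 values. Set against siControl replicates 1 and 3 only, 8 genes had a lower share in all siNPM1 libraries (13.4% of tested genes relative to the same sum) and 8 a higher one (54.8%). The siNPM1 shares lay above siControl replicate 2 and below the other two controls in 2 genes, RPS15A and RPS29 (1.9% of tested genes). They lay below siControl replicate 2 and above the other two in 5 genes, RPS4X, RPS6, RPS7, RPS24 and RPS26 (31.2%).

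In the fit across all genes on this scale, 0 of the 28 passed (limma, Benjamini-Hochberg adjusted p from 0.481 to 0.999 over 15859 genes), where 0.0% of tested genes passed as higher and 0.0189% as lower. Without siControl replicate 2, RPS10 passed as higher (log2 fold change 0.23, limma adjusted p = 0.0320). RPS3 (-0.18, adjusted p = 0.0400) and RPS12 (-0.21, adjusted p = 0.0470) passed as lower in that limma fit. The background there was 37.8% of tested genes higher and 6.99% lower. Against siControl replicate 2 alone 0 passed, with 0.0% of tested genes higher and 0.164% lower.

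**Figure D4:**
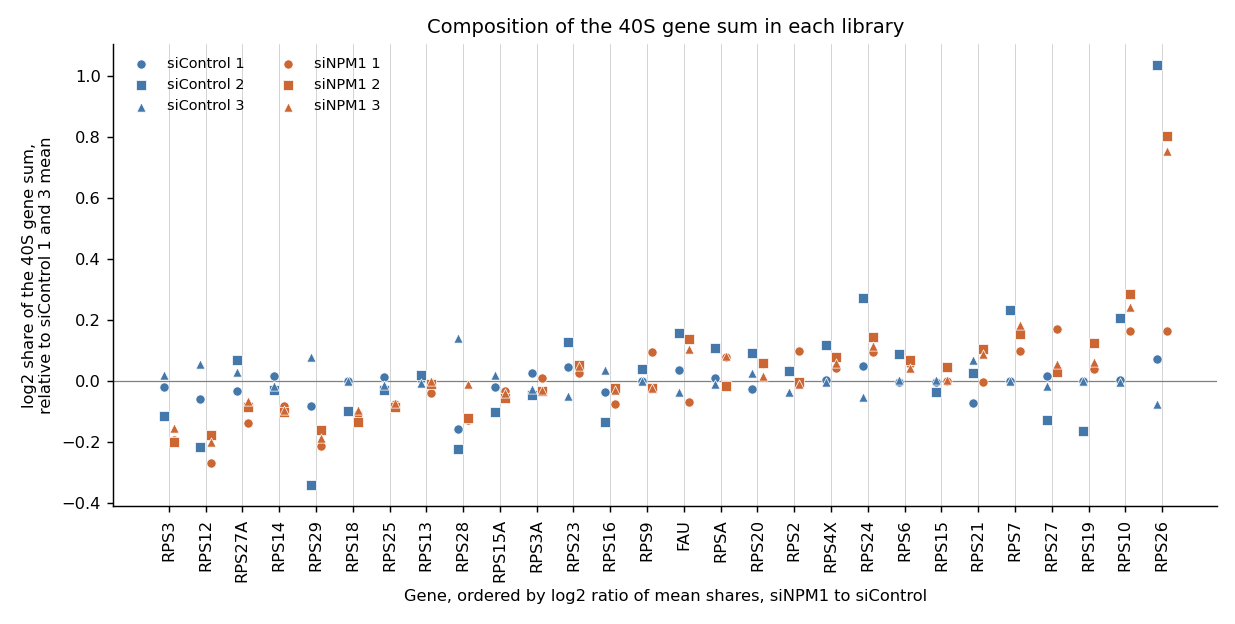
Share of each gene in the summed TPM of the 28 genes, on the log2 scale relative to the mean of siControl replicates 1 and 3, for each library, with siControl drawn to the left of siNPM1. Most points lie within 0.2 of 0; RPS3, RPS27A, RPS14 and RPS25 have all siNPM1 points below all control points, RPS27 and RPS19 have them above, and RPS26 has 3 libraries near 0 and 3 far above it.

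Sums of members with a shared property were compared in the same way, and 2 of them did not overlap between the groups. The 9 genes of Diamond-Blackfan anaemia among the 28 (RPS7, RPS10, RPS15A, RPS19, RPS24, RPS26, RPS27, RPS28 and RPS29) held 34.2%, 34.3% and 34.4% of the 40S sum in siControl and 35.6%, 35.8% and 35.6% in siNPM1. The siNPM1 share was the higher one whichever control was taken, by 1.36 percentage points between the means (34.3% ± 0.0908 and 35.7% ± 0.111, SD, n = 3 each). The difference of mean shares, siNPM1 minus siControl, was 0.833 points for RPS27, 0.319 for RPS10 and 0.248 for RPS19. It was -0.301 points for RPS29, so the 9 genes did not share 1 direction. RPS27 alone held 9.45%, 8.57% and 9.25% of the 40S sum in siControl and 10.5%, 9.54% and 9.71% in siNPM1. The separation of the summed shares rests on RPS27. With it taken out, the shares of the set overlap between the groups. The 7 genes with small nucleolar RNA genes inside their span on the same strand (GENCODE release 29), namely RPSA, RPS2, RPS3, RPS3A, RPS12, RPS13 and RPS20, held 28.6%, 28.3% and 28.6% in siControl and 28.1%, 27.6% and 27.7% in siNPM1. siControl replicate 2 lay between the other controls and siNPM1 replicate 1, closer to the latter. The difference of the means was -0.665 points. Within it, RPS3 had -0.416 points and RPS12 -0.334 points, and the other 5 had -0.0415 to 0.0737 points. The summed TPM of the 12 head genes over that of the 16 body and platform genes was 0.769, 0.716 and 0.816 in siControl and 0.714, 0.740 and 0.735 in siNPM1, and overlapped between the groups. The ratio to other TOP transcripts, 2.49, 2.52 and 2.56 in siControl and 2.38, 2.65 and 2.57 in siNPM1, overlapped as well.

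RPS26 departed from the other 27 genes in its pattern over libraries. Its share was 0.519%, 1.01% and 0.468% in siControl and 0.553%, 0.862% and 0.832% in siNPM1. siControl replicate 2 and siNPM1 replicates 2 and 3 formed the high set, and siNPM1 replicate 1 lay with siControl replicates 1 and 3. The high and low libraries thus did not follow the treatment, and the difference between the groups had a limma adjusted p of 0.663 for the level. Relative to the mean of the other 27 genes, RPS26 stood at 0.141, 0.276 and 0.127 in siControl and 0.150, 0.235 and 0.226 in siNPM1. Of the 50-base stretches of its main transcript (GENCODE release 29), 56.8% also occur in annotated pseudogenes. All of these occur in AC004057.1. The rows named RPS26P and a number summed to 15.0 to 38.4 TPM per library, highest in siControl replicate 2. AC004057.1 and other rows named differently are not in that sum. The part of pseudogene rows in the pattern of RPS26 was not tested.

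The level of RPS28 is uncertain because of a pseudogene. RPS28P7 (ENSG00000227097, a processed pseudogene of 210 bases, GRCh38 chr11:82689559-82689768, plus strand) was listed at 2680.5, 1419 and 2636 TPM under siControl and 2065, 2117 and 2187 TPM under siNPM1, which is 3.54 to 4.54 times the level of RPS28 itself. All 161 of its 50-base stretches occur in the main RPS28 transcript, which is annotated at 1326 bases for 69 codons. Reads from one cannot be told from reads of the other over that length, and the way the authors' counting divided them is not given in the sources used here. With both rows summed, RPS28 stood at 3270.4, 1808 and 3380.4 TPM in the control libraries and 2606, 2613 and 2723 TPM in the siNPM1 libraries. The order of the libraries stayed as in the other genes, while the place of RPS28 as the lowest of the 28 did not hold.

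**Figure D5:**
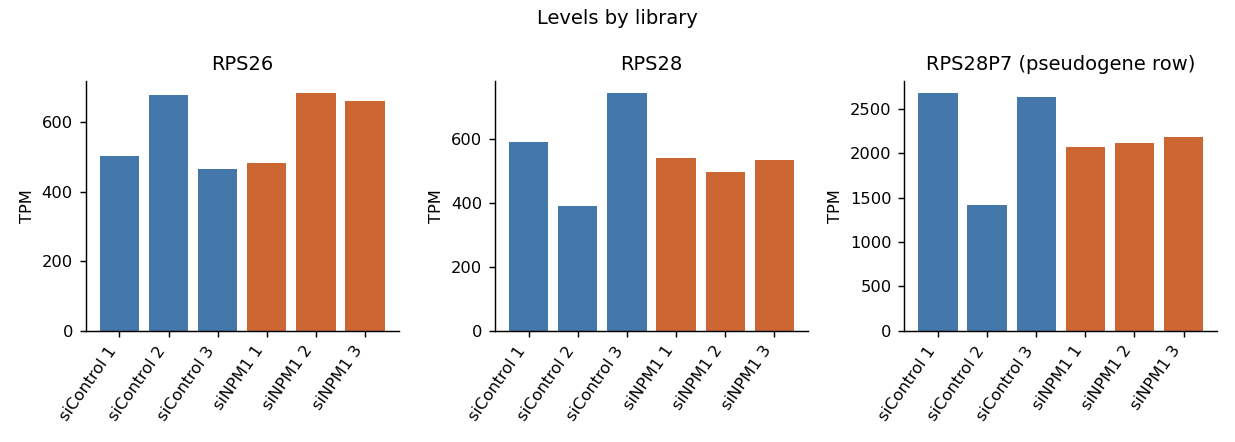
TPM of RPS26, RPS28 and the pseudogene row RPS28P7 in each library (bars start at 0; blue siControl, orange siNPM1). RPS26 is high in siControl replicate 2 and siNPM1 replicates 2 and 3, whereas RPS28 and RPS28P7 are lowest in siControl replicate 2.

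For the remaining genes, pseudogene rows named after the parent summed to at most 3.67% of its level (RPS26), with RPSA at 2.77% and RPS2 at 1.63%. Pseudogene rows under other names are not in these sums. One of them, AC005912.1, holds 50.3% of the stretches of RPS27. The share of a gene's 50-base stretches that occur exactly in other annotated genes ran from 1.02% for RPS21 to 90.4% for RPS10, where 82.6% of all its stretches occur in the readthrough gene RPS10-NUDT3. RPS10, RPS3A (83.4%), RPS2 (69.4%), RPS7 (67.8%), RPS27 (66.5%) and RPSA (66.1%) had the largest such shares. A long annotated transcript lowers this share, so it does not rank how easily reads could be divided. For RPS28, annotated at 1326 bases for 69 codons, it was 12.6%, although all stretches of RPS28P7 occur in it. RPS19, at 1.68%, and RPS14, at 9.23%, shared little. Across the 28 genes the change of the share against siControl replicates 1 and 3 had a Pearson r of -0.33 (Spearman -0.16) with the mean log2 level. With coding length and GC content of the transcript it had a Pearson r of 0.01 and -0.04. These describe 28 genes measured in the same libraries and are weak.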

How the data were processed

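The authors deposited TPM values (length-scaled transcript shares with the same total in each library) for 62703 genes in 6 libraries. Per the submitters' processing notes the build is GRCh38; aligner, quantifier, annotation and strand setting are not given in the sources used here. TPM keeps no depth, so no counting interval is given. The authors' 2 group mean columns were not used.

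The 15768 genes whose mean over all 6 libraries reached 1 TPM were tested as log2(TPM + 1) with limma 3.58.1 in R 4.3.3 (variance trend, two-sided, Benjamini-Hochberg, threshold 0.05); the pseudocount of 1 understates changes of low genes. For shares, each library was divided by its members' summed TPM and multiplied by the mean sum (15859 genes), and single shares were compared by two-sided exact permutation tests (SciPy 1.17.1). Fits leaving out a library kept the same genes. The test was checked on simulated data. Sums over members are given without a p, since the members and the 15 gene lists were chosen with earlier results of these data known. Genes given in full were NPM1, the 4 most positive and 4 most negative members by fold change and by share, the 2 highest and 2 lowest, RPS27A and FAU; RPS25, RPS29 and the other members named with values were named after their values were seen. Positions, principal transcripts and 50-base stretches come from GENCODE release 29, and start windows from RefSeq (GRCh38.p14). The design text calls the libraries of a group biological replicates and does not say how the cultures were kept apart, so p-values measure the spread between these samples. Alternatives were another pseudocount, filters, rescalings, the replicate block, each library left out and siControl replicate 2 as the only control; counting RPS28P7 with RPS28 was chosen after seeing the data.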

Additional observations from a re-analysis of the deposited data

How the results depend on the processing

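Levels, signs and counts rest on the choice of control libraries. The count of the 28 genes past the threshold over 6 libraries was 0 under the other pseudocount, both other filters, all 3 rescalings, the replicate number as a block and siControl replicate 2 as the only control, and ranged from 0 to 13 when 1 library was left out, 13 being the count without siControl replicate 2. Relative to the members' sum the count was also 0 under the other pseudocount, both filters, the block, siControl replicate 2 as the only control and the geometric mean in place of the sum, and ranged from 0 (1 library left out) to 3 (without siControl replicate 2). Single shares moved by less than 1 SD in all 28 genes when 1 library was left out. Leaving out 1 of 3 libraries cannot move a group mean by 1 SD, so this outcome was fixed in advance and shows no stability. Against siControl replicate 2 alone, 22 genes moved by more than 1 SD. The count over all genes, 4 with all libraries, was 1 with no filter, 2 with a mean of at least 5 TPM, 27 against siControl replicate 2 alone, and 1 to 5833 when 1 library was left out. The deviations of same-numbered libraries from their group means had Pearson r of 0.0652, 0.0814 and -0.0383 over 15768 genes. Replicates 1 and replicates 2 each correlated best with each other, though weakly, and replicates 3 did not. With 3 libraries per group these values cannot decide whether same-numbered samples were handled together, and the main fit did not pair them. With the replicate block the count over all genes was 1. The members' median log2 fold change was 0.26 against siControl replicate 2 alone. There the difference in summed percent was 1.50 points and that in the ratio to the large subunit 0.0287. With all 3 controls, the median log2 difference in place of that ratio was 0.12. The cause of these changes was not tested.

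Log2 fold changes that changed sign, with the member values, were these. Against siControl replicate 2 alone, 25 did: RPSA 0.23, RPS2 0.29, RPS3 0.22, RPS3A 0.32, RPS4X 0.23, RPS6 0.26, RPS7 0.20, RPS9 0.27, RPS12 0.29, RPS13 0.25, RPS14 0.23, RPS15 0.34, RPS15A 0.35, RPS16 0.38, RPS18 0.28, RPS20 0.24, RPS21 0.33, RPS23 0.20, RPS24 0.13, RPS25 0.24, RPS26 -0.17, RPS27A 0.13, RPS28 0.43, RPS29 0.45, FAU 0.19. Rescaled without mitochondrially encoded genes, 16 did: RPSA 0.022, RPS2 0.029, RPS3A 0.0086, RPS4X 0.031, RPS6 0.038, RPS7 0.079, RPS9 0.015, RPS15 0.039, RPS15A 0.0015, RPS16 0.013, RPS20 0.024, RPS21 0.066, RPS23 0.011, RPS24 0.038, RPS28 0.0043, FAU 0.018. Rescaled without these and the ribosomal protein genes, 14 did: RPSA 0.018, RPS2 0.024, RPS3A 0.0042, RPS4X 0.027, RPS6 0.033, RPS7 0.074, RPS9 0.011, RPS15 0.035, RPS16 0.0086, RPS20 0.020, RPS21 0.062, RPS23 0.0071, RPS24 0.034, FAU 0.014. Centred on the library median, 3 did: RPS10 -0.043, RPS19 -0.073, RPS27 -0.078. With 1 library left out, 20 did, with ranges of FAU -0.20 to 0.0041, RPS2 -0.23 to 0.036, RPS6 -0.21 to 0.036, RPS7 -0.12 to 0.052, RPS9 -0.24 to 0.020, RPSA -0.21 to 0.011, RPS10 -0.031 to 0.15, RPS15 -0.25 to 0.059, RPS16 -0.30 to 0.065, RPS19 -0.18 to 0.18, RPS20 -0.22 to 0.034, RPS21 -0.20 to 0.11, RPS23 -0.22 to 0.0088, RPS24 -0.14 to 0.013, RPS27 -0.18 to 0.16, RPS28 -0.34 to 0.13, RPS29 -0.45 to 0.049, RPS3A -0.28 to 0.024, RPS4X -0.20 to 0.022, RPS15A -0.30 to 0.040. None of these passed the threshold in the new direction, and no member changed sign with the other pseudocount, filters or the block. Sequencing depth is unknown from TPM, so the counting error of each value cannot be given.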

Other observations

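The composition of the 40S sum can be compared between any 2 libraries by the SD, over the 28 genes, of the difference in log2 share. The closest pair was siNPM1 replicates 2 and 3, at 0.0406. siControl replicates 1 and 3 differed by 0.0902, most in RPS28 (-0.30 on the log2 scale). siControl replicate 2 differed from them by 0.220 and 0.274, and by 0.127 and 0.177 once RPS26 was left out. From the siNPM1 libraries it differed, without RPS26, by 0.117, 0.104 and 0.0988. These are descriptions over genes of the same libraries, with no test.

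The pseudogene RPS29P12 was listed at 49.3 TPM in siNPM1 replicate 1 and at 0 in the other 5 libraries. RPS29 itself stood at 4437 TPM in that library, between its siControl replicate 2 value of 3123 TPM and its siControl replicate 1 value of 5411 TPM. RPS29P12 was named after its values were seen.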
